A study of Mus musculus with 10 samples.

Results

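The comparison described here sets mouse marrow progenitors immortalized by the fusion oncogene MLL-ENL against those immortalized by NUP98-NSD1, another fusion oncogene. It rests on 4 of the 10 samples of the series: 1 MLL-ENL culture and 3 NUP98-NSD1 clones, chosen by the oncogene in their labels, with all measured genes described. Every culture was grown out from primary marrow progenitors in medium with stem cell factor and without GM-CSF, and RNA was hybridized to Affymetrix Mouse Genome 430 2.0 arrays, a platform that reads each transcript with 1 or more probe sets. The MLL-ENL label carries no clone number and the fusion is represented by 1 array, so a difference has no replicate on that side. The labels do not say whether the NUP98-NSD1 clones came from separate animals, and p-values therefore measure the spread between these samples, which may be technical. The other 6 arrays, 3 clones with HoxA9 and 3 with HoxA9 and Meis1 together, served to estimate the spread between clones and to show levels in other immortalized progenitors. Their values also entered the percentile that set which genes counted as measured. Neither strain, sex nor age of the donor mice is in the labels.

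MLL-ENL joins the N-terminal part of the histone methyltransferase MLL (gene Kmt2a) to ENL (gene Mllt1), a protein that works with complexes which promote transcript elongation and methylate histone H3 at lysine 79 through DOT1L. NUP98-NSD1 joins the repeats of a nuclear pore protein to NSD1, a methyltransferase of histone H3 lysine 36. Both fusions occur in acute myeloid leukaemia, and both are known for keeping Hox-A genes and Meis1, which are active in early progenitors, from being shut off as myeloid cells mature.

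The values are scaled fluorescence signals of single probe sets. A gene was measured if a probe set that names it alone exceeded a signal of 369, the 40th percentile of all values, on at least 1 of the 4 arrays; 14905 genes passed, 336 of them through the MLL-ENL array only and 3124 through clones only. The latter groups had to differ by construction, so counts below are descriptions of what was measured. The median signal was 440.3 on the MLL-ENL array and 455 to 638 on the clones. Hybridization-control probe sets read 14.003 to 14.12 on the log2 scale on these 4 arrays and 13.17 to 13.41 on the 6 HoxA9 and HoxA9+Meis1 arrays, so levels quoted from those 6 arrays cross that offset. The 3'/5' signal ratio of Actb, which rises as RNA degrades, was 1.31 for MLL-ENL and 1.18 to 1.43 for the clones. Across the 14905 genes, which are not independent replicates, log2 signals correlated with r of 0.921 to 0.938 between clones and 0.885 to 0.913 between MLL-ENL and a clone. Ptprc, the pan-leukocyte antigen CD45, read 39560, 37015 and 44746 in clones 1, 2 and 3 and 45523 in MLL-ENL. Of the 8 measured stromal and endothelial genes and the 12 B lymphoid genes, none was called in either direction by the rules described next (limma, adjusted p under 0.05, or at least 2-fold beyond the clones). Of all genes, 4.67% and 4.25% were, so none among so few does not show that they were alike. The B lymphoid median log2 difference was -0.79, and 5 of the 12 were lower by at least 1. Of the 12, 7 had passed the filter through clones only. Without clone 3, 2 of the B lymphoid genes fell by limma and 2 of the stromal genes lay 2-fold below the clones.

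Fewer genes were higher in MLL-ENL than were lower. A gene was called "beyond the clones" when its MLL-ENL signal lay at least 2-fold above the highest or below the lowest of the 3 clones, signals under 369 being first raised to that level; folds beyond the clones are ratios of these signals, while log2 differences are of signal + 32. By this rule, which is no test, 246 genes were higher (1.65% of those measured) and 387 lower (2.60%), 4.25% in either direction. With limma, which takes its spread from all 10 arrays and assumes that the MLL-ENL array varies like the clones, 259 genes rose (1.74%) and 437 fell (2.93%) at a Benjamini-Hochberg adjusted p under 0.05, 4.67% in either direction, and 85 of the risers and 217 of the fallers were also beyond the clones. No gene was called in opposite directions by the rule and the test. Of the 387 genes below the clones, 144 were under the level of 369 in MLL-ENL, and 50 of the 246 above them were under it in all 3 clones. For scale, the signal of MLL-ENL as deposited, not raised to 369, lay above all 3 clones for 26.4% of genes and below all 3 for 31.8%. These are counts at any distance, and lists set beside these shares use the same signals. The median log2 difference over all genes was -0.04. Shifting the arrays to a common median moved that value by 0.31 and turned the split: 397 genes were then 2-fold above the clones, and lower genes made up 45.3% of the genes beyond the clones, against 61.1% with the values as deposited. Of the limma calls, 51.8% were then lower, against 62.8%.

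**Figure D1:**
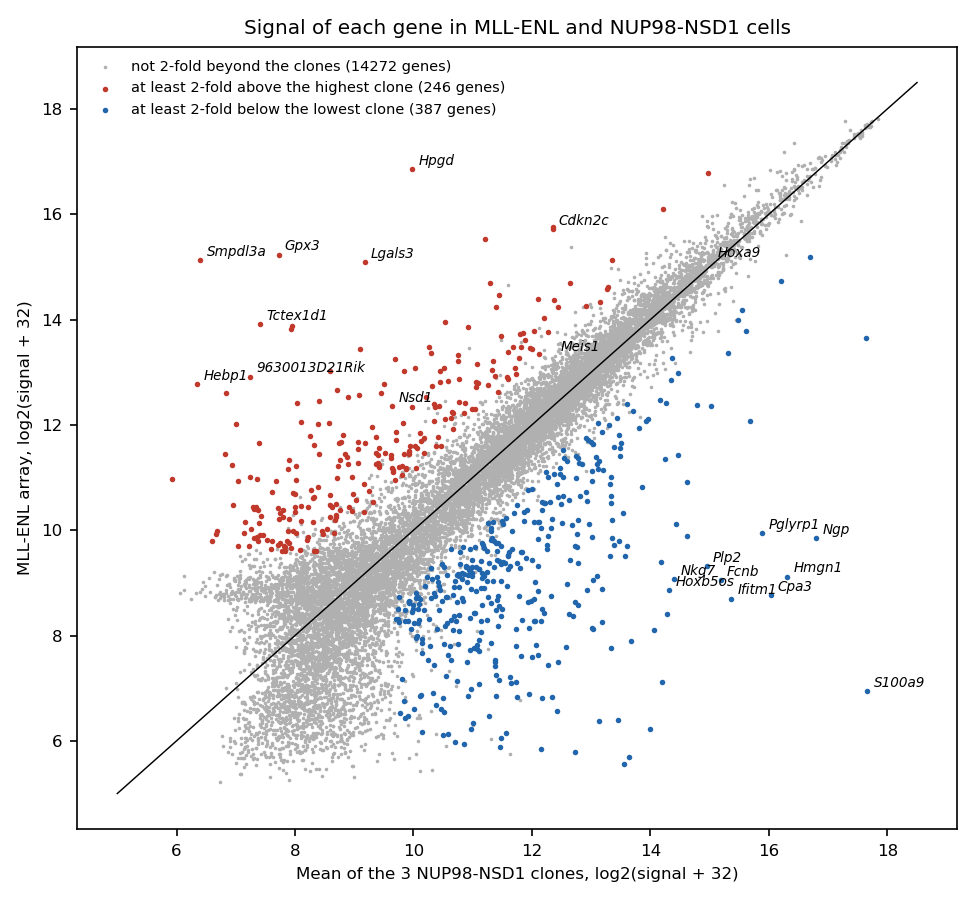
Each point is 1 of the 14905 measured genes, with the mean log2(signal + 32) of the 3 NUP98-NSD1 clones on the x axis and the single MLL-ENL array on the y axis; the line marks equal signal. Red points (246) lie at least 2-fold above the highest clone and blue points (387) at least 2-fold below the lowest; S100a9 lies furthest below and Smpdl3a furthest above, while Hoxa9 lies on the line.

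The clones were not alike. Clone 3 was the highest of the clones for 30.2% of genes and the lowest for 45.9%. It was the highest for 19 of 21 measured secondary granule and neutrophil genes and 14 of 17 primary granule genes, and the lowest for 20 of 20 mast cell, basophil and eosinophil genes. Over all genes, 30.5% spanned at least 2-fold among the clones. Without clone 3, limma called 601 genes higher and 817 lower, and 411 and 713 lay 2-fold beyond the 2 remaining clones; without clone 1 limma called 139 and 280, and without clone 2 it called 120 and 230. Some list counts moved by over 1.5 times without a clone. Many of these are given below with that value, but not all, so a count given without one was not always stable.

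The genes joined in the fusions were read by probe sets whose position relative to the breakpoints was not used here, so their signals do not check the labels. The signal of Nsd1 was 937, 603 and 795 in clones 1, 2 and 3 and 5223 in MLL-ENL. The 3 clones lay close together and MLL-ENL was 5.58-fold above the highest of them. The log2 difference of 2.72 (SE 0.54) gave an adjusted p of 0.0209 by limma; without clone 2 it was 0.0595, and over the 16 alternatives it ran from 0.0107 to 0.0596. The HoxA9 clones read 2305 to 4284 and the HoxA9+Meis1 clones 1655 to 5168 on this probe set, so among the 10 arrays the NUP98-NSD1 clones were the low ones. A further Nsd1 probe set showed the same order, with 127.8, 40.1 and 61.9 in the clones and 1207 in MLL-ENL. The partner gene Nup98 did not pass the test, with 6039, 6007 and 4609 in the clones and 6251 in MLL-ENL (adjusted p = 0.702). Kmt2a read 6104, 6253 and 4520 in the clones and 4655 in MLL-ENL, which lay within the range of the clones (adjusted p = 0.542); under the common-median shift its log2 difference changed sign, from -0.26 to 0.05. Mllt1, the mouse gene for ENL, read 2154, 2754 and 2175 in the clones and 1804 in MLL-ENL (adjusted p = 0.571). Neither of the MLL-ENL partner genes was thus higher on the MLL-ENL array. Among the 14 measured genes of H3K36 methylation and NUP98 partners, Nsd1 was the 1 gene called by either rule. Of all genes, 4.67% were called by limma and 4.25% lay 2-fold beyond the clones. The median log2 difference of the list was -0.05 (0.26 under the common-median shift).

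Hox-A genes encode homeodomain transcription factors of early progenitors, and the brightest of them, Hoxa9, Hoxa10 and Hoxa5, read within the range of the clones. None of the 8 measured members was called by limma or lay 2-fold beyond the clones. Their median log2 difference was 0.02, beside -0.04 for all genes. Under the common-median shift these medians were 0.32 and 0.28. Hoxa9 read 32131, 31804 and 36931 in the clones and 35209 in MLL-ENL, inside the range of the clones. On the same probe set the HoxA9 and HoxA9+Meis1 clones, which carry HoxA9 as the immortalizing oncogene, read 25.7 to 50.8. A different Hoxa9 probe set was the brightest over all 10 arrays, so these low values do not show that those clones lacked Hoxa9 RNA. Whether the probe set used here reads the introduced HoxA9 transcript was not tested. Hoxa10 read 4859, 4324 and 11545 in the clones and 7221 in MLL-ENL, and the overlap was again complete. Hoxa5 read 6302, 4525 and 3155 in the clones and 3189 in MLL-ENL, next to clone 3. Hoxa7 read 339, 1835 and 1334 in the clones and 2096 in MLL-ENL, where clone 1 rather than MLL-ENL stood apart. The log2 difference of Hoxa7 was 1.12 with an SE of 0.80 (adjusted p = 0.501). The sign of such small differences was not stable: that of Hoxa9, 0.07 here, was -0.03 after quantile normalization, -0.05 over the mean of its probe sets and -0.18 with the probe set that is brightest over all 10 arrays, and that of Hoxa10, 0.21, was -0.05 without clone 2.

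The TALE homeodomain proteins bind DNA together with Hox proteins. Meis1 read 6267, 5655 and 4214 in the clones and 10160 in MLL-ENL, above all 3 clones by 1.62-fold, short of the 2-fold rule, with a log2 difference of 0.93 (SE 0.39) and an adjusted p of 0.212. Its other 2 kept probe sets were dimmer and read inside the range of the clones, and the difference was -0.14 when one of them stood for the gene. Pbx3 read 1671, 2059 and 900.0 in the clones and 2265 in MLL-ENL (adjusted p = 0.706), and its difference of 0.62 was -0.03 with the probe set brightest over all arrays. Tgif2, a transcriptional repressor of the same family, fell: 3471, 3789 and 2171 in the clones against 697 in MLL-ENL, a log2 difference of -2.08 (SE 0.36, adjusted p = 0.0123; 0.0688 with the mean of its probe sets, and from 0.00372 over the alternatives). It was the 1 gene called of 9 measured TALE genes, beside 2.93% of all genes that fell by limma. Pknox1 read 6526, 6904 and 8703 in the clones and 10535 in MLL-ENL (adjusted p = 0.0962); it passed without clone 3 (0.0102), and ran to 0.319 over the alternatives.

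Hox-B genes were mostly lower in MLL-ENL. Of 6 measured members, 3 fell by limma (2.93% of all genes fell). The same 3 lay 2-fold below the clones (2.60% of all genes did). Of the 6, 3 had passed the filter through clones only and 1, Hoxb13, through MLL-ENL only. Hoxb2 read 4312, 5318 and 4021 in the clones, which lay close together, and 25.4 in MLL-ENL, a value under the level of 369; the fold was at least 10.9 and the log2 difference -6.31 (SE 0.70, adjusted p = 0.00167). Hoxb3 read 6177, 4657 and 4621 in the clones and 1017 in MLL-ENL, with no overlap and a log2 difference of -2.29 (SE 0.29, adjusted p = 0.00285). A further Hoxb3 probe set read 3509, 3791 and 3519 against 1090 and showed the same separation. Hoxb5 read 1303, 1550 and 2129 in the clones and 31.3 in MLL-ENL, with a log2 difference of -4.71 (SE 0.64, adjusted p = 0.00402). The transcript Hoxb5os, annotated on the opposite strand of Hoxb5, was among the genes furthest below the clones, at 18669, 21823 and 20923 in the clones and 432 in MLL-ENL (43.2-fold, adjusted p = 0.0139; 0.0514 without the trend and 0.052 with robust eBayes). Hoxb4 lay below all clones without passing the test (2296, 2021 and 2378 against 1348, adjusted p = 0.169). Hoxb13, a gene of the far end of the cluster, went the other way: it read 121, 56.6 and 35.2 in the clones, all under the level, and 855 in MLL-ENL, at least 2.31-fold higher, with an adjusted p of 0.0686. The calls of Hoxb2, Hoxb3 and Hoxb5 held in all 16 alternatives. For Hoxb5 the HoxA9 clones read 48.5 to 56.4 and the HoxA9+Meis1 clones 35.8 to 58.9, so the NUP98-NSD1 clones were the high ones. For Hoxb2 these clones read 599.9 to 915 and 147 to 728, both above MLL-ENL. For Hoxb3 the HoxA9 clones read 1639 to 1946, above MLL-ENL, and the HoxA9+Meis1 clones 575 to 844, below it. Of the 7 measured Hox-C and Hox-D genes, 1 fell by limma (Hoxd3) and 1 lay 2-fold above the clones (Hoxc9), both at signals under 1000. The shares over all genes were 2.93% and 1.65%. Without clone 1 or clone 2 none of these 7 fell, and without clone 3 it was 2.

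**Figure D2:**
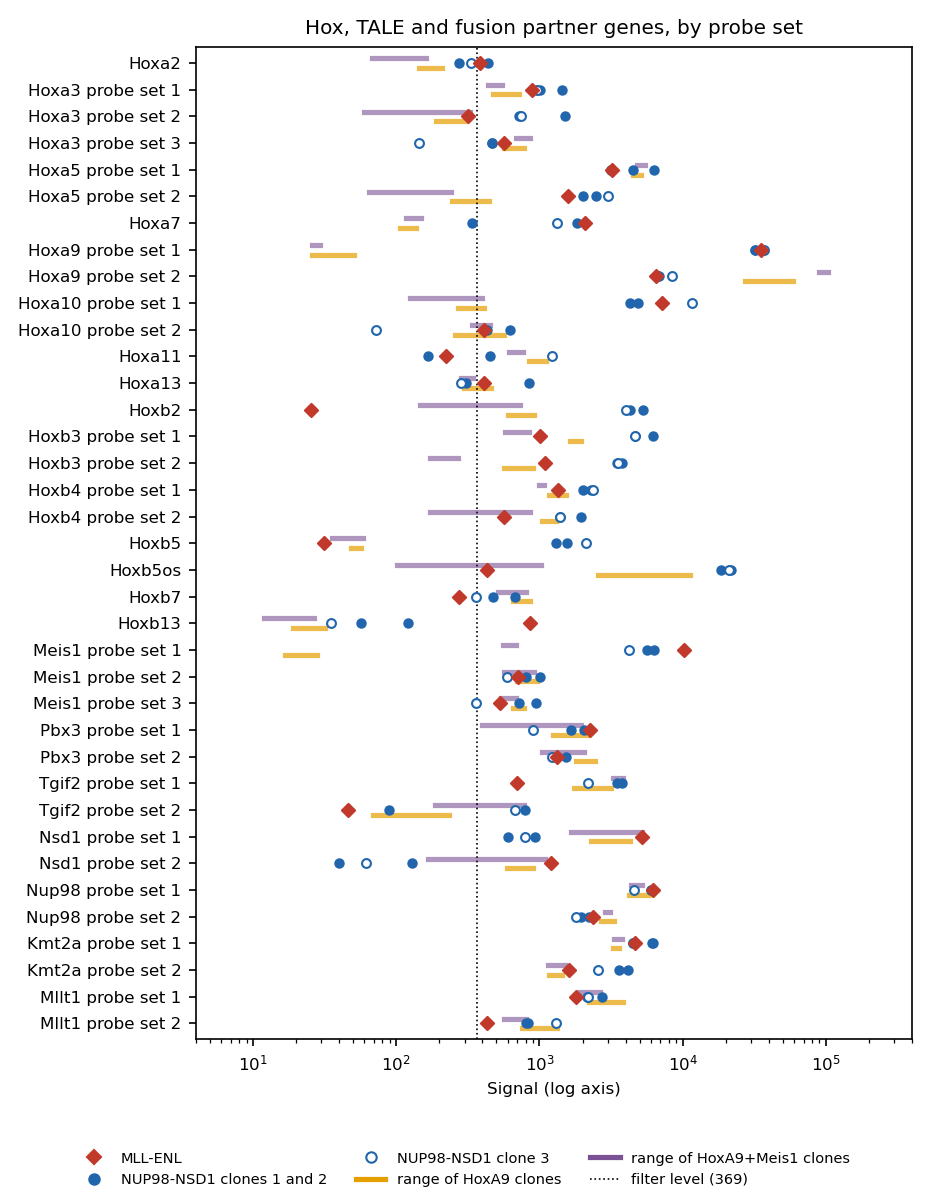
Signal (log axis) of every kept probe set of Hox-A and Hox-B genes, Hoxb5os, Meis1, Pbx3, Tgif2 and the fusion partner genes, in MLL-ENL (red diamonds) and NUP98-NSD1 clones 1 and 2 (blue) and 3 (open); bars give the ranges of 3 HoxA9 and 3 HoxA9+Meis1 clones and the dotted line the filter level of 369. MLL-ENL overlaps the clones for Hoxa9 and Hoxa10 and lies apart from them for Hoxb2, Hoxb3, Hoxb5, Hoxb5os and Nsd1.

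Genes known as targets of MLL fusions moved in both directions. Of 18 measured, all above the filter on both sides, 4 rose and 2 fell by limma, beside 1.74% and 2.93% of all genes, and the median log2 difference was 0.18, beside -0.04 for all genes. Without clone 1, 1 fell, and without clone 2, 1 lay 2-fold above the clones. Mef2c, a MADS-box factor of myeloid and lymphoid progenitors, read 10619, 10618 and 10498 in the clones, nearly the same in each, and 18591 in MLL-ENL (log2 difference 0.81, SE 0.13, adjusted p = 0.00803). The RNA-binding splicing regulator Mbnl1 read 72828, 77231 and 86078 against 148941 (adjusted p = 0.0107; 0.339 with the mean of its probe sets and from 0.00641 over the alternatives). Lmo2, an adaptor of haematopoietic transcription complexes, read 30108, 33338 and 37574 against 58090 (adjusted p = 0.0107; 0.0582 under the common-median shift, 0.0563 without the trend and 0.0524 in a fit of the 4 arrays). All 3 lay above every clone by less than 2-fold. Zeb2, a zinc-finger repressor, read 17784, 15417 and 10872 against 29867 (adjusted p = 0.0445); its adjusted p was 0.0822 without clone 2 and 0.0153 to 0.112 over the 16 alternatives. The receptor tyrosine kinase Flt3 fell, from 3128, 4193 and 2227 in the clones to 709 in MLL-ENL (log2 difference -2.07, SE 0.40, adjusted p = 0.0187); without clone 1 the adjusted p was 0.0504, within a range of 0.00784 to 0.0585 over the alternatives. Id2, an inhibitor of helix-loop-helix factors, fell from 9581, 9809 and 15723 to 2979 (adjusted p = 0.00563). With suffixed probe sets left out, the log2 difference of Id2 was -0.72 instead of -1.92 and its adjusted p 0.566, and with the mean of its probe sets the adjusted p was 0.0592. Hmga2, a chromatin architectural protein, lay 6.48-fold below the lowest clone (9454, 7943 and 3073 against 474) but did not pass the test (adjusted p = 0.13). Cdk6 (63234, 59938 and 64334 against 66840) and Myb (73766, 78551 and 76694 against 65419), both drivers of progenitor growth, did not pass the test (adjusted p = 0.607 and 0.204). The sign of Myb depended on scaling, at -0.22 as deposited and 0.09 after the common-median shift.

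Among the 19 measured genes of the MLL, menin, DOT1L and elongation complexes, none rose and 2 fell (1 without clone 2). Of all genes, 1.74% rose and 2.93% fell. Ell2, an elongation factor of the family to which other MLL fusion partners belong, read 5001, 4154 and 2779 in the clones and 365 in MLL-ENL, just under the level, at least 7.53-fold lower (log2 difference -3.30, SE 0.47, adjusted p = 0.00492, called in all 16 alternatives). Mllt6 read 3909, 4338 and 3317 against 1306 (adjusted p = 0.0183); without clone 2 its adjusted p was 0.0557, within 0.0124 to 0.392 over the alternatives. The list's median of -0.22 became 0.09 under the common-median shift.

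Neutrophil genes were mostly lower in MLL-ENL, S100a9 by the widest gap of any gene. S100a9 and S100a8 together form calprotectin, the main cytosolic protein of neutrophils, and Ngp, Camp, Ltf and Lcn2 encode proteins of the secondary granules that neutrophil precursors make after the primary granules. S100a9 read 168207, 197465 and 268316 in the clones and 91.4 in MLL-ENL, where it was under the level. That made it at least 455-fold lower, with a log2 difference of -10.71 (SE 1.48, adjusted p = 0.00415). Ngp read 70399, 88526 and 237055 in the clones and 887 in MLL-ENL (79.4-fold below the lowest clone; log2 difference -6.95, SE 0.88, adjusted p = 0.00306). Camp, the cathelicidin, read 6886, 6798 and 91350 in the clones and 42.4 in MLL-ENL (adjusted p = 0.00753). Lactoferrin, Ltf, read 2589, 2708 and 42737 in the clones and 23.2 in MLL-ENL (adjusted p = 0.0126). For each of these 4 the groups were far apart although clone 3 was several-fold above the other clones for Ngp, Camp and Ltf, and each call held in all 16 alternatives. In bulk RNA, fewer cells of a type and less of a transcript per cell cannot be told apart.

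To show the DNA next to which these transcripts start, the 250 bases before the annotated start are printed for 3 of these genes and for Cpa3, the mast cell gene furthest below the clones. They are RefSeq sequences of the mouse assembly GRCm38.p6, 5′ to 3′ on the gene's strand, with matches to TTGCNNAA or its reverse complement TTNNGCAA (core of the C/EBP motif) and to the GATA motif in capitals. The GATA letters searched were AGATAA, and on the opposite strand the reverse complement of these, which reads TTATCT. The windows are Ngp at chr9:110419558-110419807 on the plus strand, S100a9 at chr3:90695722-90695971 on the minus strand, Camp at chr9:109849457-109849706 on the minus strand and Cpa3 at chr3:20242182-20242431 on the minus strand.
Ngp: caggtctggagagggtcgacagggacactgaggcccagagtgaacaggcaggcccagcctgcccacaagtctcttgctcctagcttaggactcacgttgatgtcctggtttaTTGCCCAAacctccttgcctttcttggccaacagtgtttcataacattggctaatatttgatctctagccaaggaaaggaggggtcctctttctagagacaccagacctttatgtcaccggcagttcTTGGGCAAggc
S100a9: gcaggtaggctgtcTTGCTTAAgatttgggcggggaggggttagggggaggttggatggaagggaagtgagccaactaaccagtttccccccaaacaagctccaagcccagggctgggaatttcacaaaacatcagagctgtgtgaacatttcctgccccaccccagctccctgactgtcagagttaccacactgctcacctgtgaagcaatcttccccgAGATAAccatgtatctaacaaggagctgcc
Camp: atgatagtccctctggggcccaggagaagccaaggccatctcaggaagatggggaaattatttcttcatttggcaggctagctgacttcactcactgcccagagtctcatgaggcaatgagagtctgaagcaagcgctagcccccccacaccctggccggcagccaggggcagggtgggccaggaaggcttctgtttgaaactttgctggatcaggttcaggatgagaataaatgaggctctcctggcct
Cpa3: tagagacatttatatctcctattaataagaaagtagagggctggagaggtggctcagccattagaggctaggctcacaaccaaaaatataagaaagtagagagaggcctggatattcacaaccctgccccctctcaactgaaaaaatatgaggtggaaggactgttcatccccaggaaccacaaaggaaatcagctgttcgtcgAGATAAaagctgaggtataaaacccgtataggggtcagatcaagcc
The Ngp window held 2 matches to the C/EBP letters, that of S100a9 1 match to each motif, that of Camp no match and that of Cpa3 1 GATA match. Over the secondary granule and neutrophil genes with a window, measured or not, 7 of 22 windows (31.8%) held the C/EBP letters and 4 (18.2%) the GATA letters. For the primary granule genes it was 2 of 18 windows (11.1%) and 0. Over the mast cell, basophil and eosinophil genes, 6 of 23 windows (26.1%) held the C/EBP letters and 8 (34.8%) the GATA letters. Of all 32851 mouse windows of that length, 9.56% and 9.99% did. A match describes letters in the window and is not evidence of binding, and the motif shares were not tested.

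The rest of the neutrophil list showed the same separation less uniformly. Of 24 genes, 21 were measured, 8 of them through clones only; 5 fell by limma, none rose, 12 lay 2-fold below the clones and none 2-fold above, and the median log2 difference was -1.88. Of all genes, 2.93% fell and 2.60% lay 2-fold below. Without clone 3, 1 member rose by limma and 2 lay 2-fold above the clones. The called members were S100a9, Ngp, Camp, Ltf and Cxcr2, the last a chemokine receptor of mature neutrophils at 1486, 816 and 1345 in the clones and 154 in MLL-ENL. In a fit of the 4 compared arrays alone, 12 of the 21 fell. S100a8 kept a clear signal in MLL-ENL, at 12818, against 171057, 190110 and 264888 in the clones (13.3-fold below the lowest, adjusted p = 0.102). Lcn2 read 9403, 10081 and 65827 against 641 (adjusted p = 0.0633), and Pglyrp1, a bactericidal granule protein, 43560, 47483 and 107887 against 954 (adjusted p = 0.0552). Neither passed the test although every clone was at least 14.7-fold above MLL-ENL. Haptoglobin, Hp, was the 1 member above all clones, at 23499, 26926 and 42943 against 63681 (adjusted p = 0.0745); without clone 3 its adjusted p was 0.00826, and it ran from there to 0.169 over the alternatives. The summed signal of the list was 134346 in MLL-ENL and 611099 to 1337730 in the clones. In the HoxA9 clones it was 68198 to 191197, a range that includes the MLL-ENL sum.

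Primary granule genes, made at the promyelocyte stage, were mostly not called. Mpo, myeloperoxidase, read 196759, 216055 and 237929 in the clones and 221677 in MLL-ENL. Neutrophil elastase, Elane, read 147012, 163069 and 199729 against 198245, cathepsin G, Ctsg, 180937, 197889 and 227371 against 211001, and proteinase 3, Prtn3, 139636, 148862 and 167692 against 159315. All 4 were inside the range of the clones and among the brightest genes on every array. Of 17 measured list members, 3 fell by limma (5 without clone 3) and 4 lay 2-fold below the clones. The shares over all genes were 2.93% and 2.60%. Fcnb, ficolin B, read 24892, 25357 and 82140 in the clones and 502 in MLL-ENL (49.6-fold, log2 difference -6.13, SE 0.73, adjusted p = 0.00242). Nkg7, a granule membrane protein, read 27145, 24236 and 15346 against 508 (30.2-fold, adjusted p = 0.000519). Cst7, a cathepsin inhibitor, read 38353, 45174 and 46672 against 20878, less than 2-fold below, with an adjusted p of 0.00826 (0.151 under the common-median shift). The median of the list was -0.14, and 0.16 under the common-median shift. The differences of Mpo and Ctsg, 0.04 and 0.07, and that of lysozyme, Lyz2, 0.06, changed sign when clone 1 was left out (-0.03, -0.01 and -0.15), and that of Lyz2 also without clone 2 (-0.07).

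The list of stefins and cystatins, which are protease inhibitors, had 5 measured members. Of these, 1 fell by limma (Cst7, given above), beside 2.93% of all genes. Without clone 3, 2 rose and 3 fell; without clone 1, 2 fell and 3 lay 2-fold below the clones, against 1 with all clones. The myeloid stefin Stfa2l1 lay below the clones (3306, 6739 and 98152 against 206, at least 8.95-fold, adjusted p = 0.0668), while Cstb, which is expressed in many cell types, lay 2.5-fold above the highest clone (1816, 3482 and 22248 against 55660, adjusted p = 0.0902). Clone 3 was the highest clone for both, and without it the adjusted p was 0.0345 for Stfa2l1 and 0.00164 for Cstb, and over the alternatives it ran to 0.145 and 0.221.

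Mast cell, basophil and eosinophil genes were low in MLL-ENL. Of 24 genes 20 were measured, 11 of them through clones only. By limma 8 fell (2.93% of all genes did) and none rose. Of the 20, 9 lay 2-fold below the clones (2.60% of all genes did), and the median log2 difference was -3.53. Carboxypeptidase A3, Cpa3, a mast cell granule protease, read 96364, 94796 and 33297 in the clones and 402 in MLL-ENL (82.8-fold below the lowest clone; log2 difference -7.28, SE 1.02, adjusted p = 0.00444). Hdc, the enzyme that makes histamine, read 27230, 30195 and 9374 in the clones and 309 in MLL-ENL, under the level (at least 25.4-fold, adjusted p = 0.0102). Mcpt8, a basophil protease, read 41852, 44878 and 8442 against 914 (adjusted p = 0.0151; 0.0547 without the trend and 0.0646 with robust eBayes). In all 3, clone 3 was the lowest clone and still far above MLL-ENL.

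The distance to clone 3 was shorter for other members. The mast cell chymase Cma1 read 61664, 52547 and 1999 in the clones and 107 in MLL-ENL (adjusted p = 0.0311), and Ms4a2, the beta chain of the IgE receptor, 23349, 18834 and 4006 against 697 (adjusted p = 0.0231). Its alpha chain Fcer1a read 29473, 19971 and 1115 against 532 and did not pass (adjusted p = 0.197; 0.0129 without clone 3 and up to 0.353 over the alternatives). Gata2, a transcription factor of mast cells and stem cells, read 13670, 11075 and 3633 against 901 (log2 difference -3.14, SE 0.58, adjusted p = 0.016). Without clone 3, 17 of the 20 genes fell by limma and 17 lay 2-fold below the clones; without clone 1 limma called 4 and without clone 2 it called 3. The calls of Cma1 and Ms4a2 were lost without clone 1 or clone 2 and that of Gata2 without clone 2, at adjusted p of 0.0509 to 0.0814, while over the alternatives these genes ran from 0.000326 to 0.0975. The list's summed signal was 7964 in MLL-ENL, 66984 to 356505 in the clones and 10548 to 15604 in the HoxA9 clones. Gzmb, granzyme B, which the list of T and NK cell genes holds, followed the same order (44526, 46188 and 2416 in the clones, 244 in MLL-ENL, adjusted p = 0.0318; 0.0794 without clone 1, 0.0817 without clone 2, and 0.000183 to 0.0835 over the alternatives). It was the 1 gene called of the 11 measured in that list, beside 2.93% of all genes that fell by limma. In that list Cd3d, Cd5 and Cd8a read under 1400 on all 4 arrays.

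**Figure D3:**
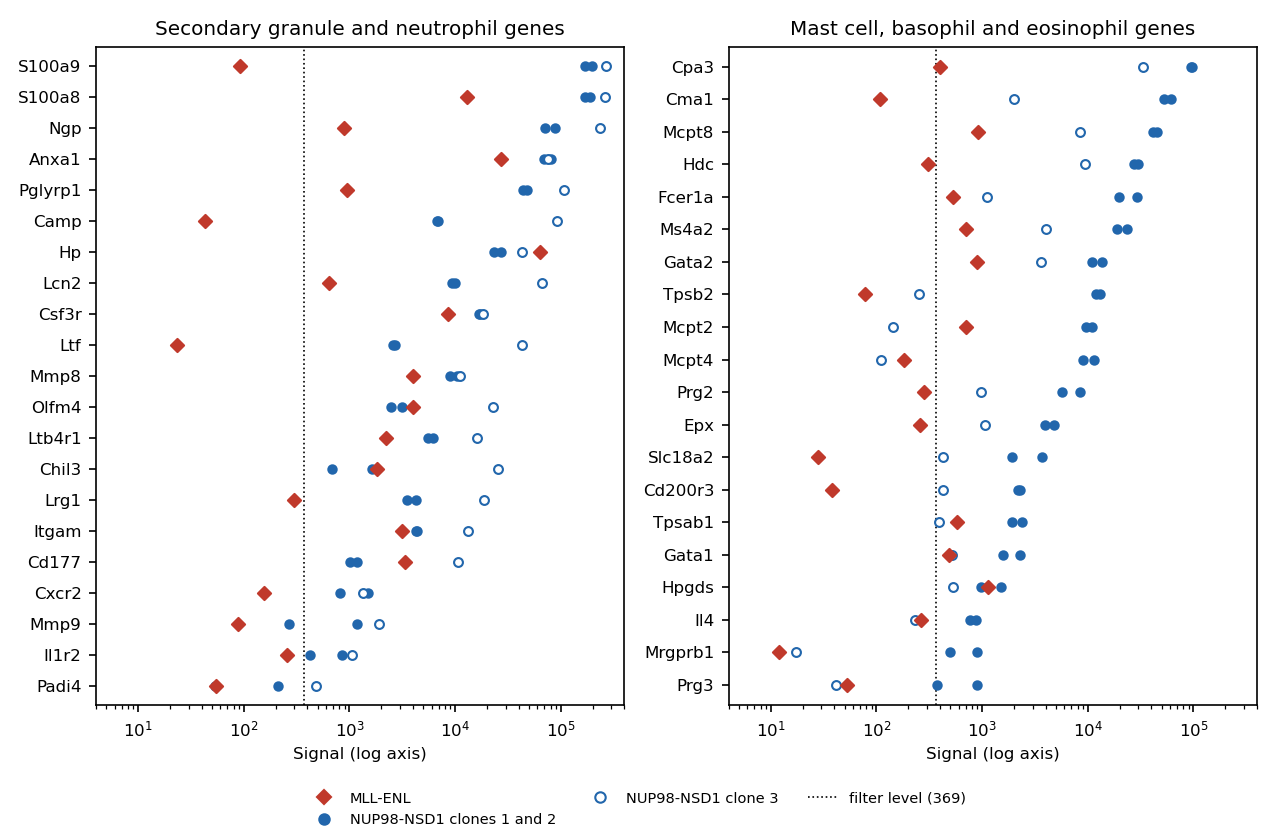
Signal (log axis) of each measured secondary granule and neutrophil gene (left) and mast cell, basophil and eosinophil gene (right) in MLL-ENL (red diamonds), NUP98-NSD1 clones 1 and 2 (blue) and clone 3 (open); the dotted line is the filter level of 369. Clone 3 is the highest clone for 19 of 21 genes on the left and the lowest for 20 of 20 on the right, and MLL-ENL lies 2-fold below every clone for 12 and 9 genes.

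Stem and progenitor genes were mostly lower in MLL-ENL. Of 24 genes 20 were measured, 6 of them through clones only and 1 through MLL-ENL only; 8 fell by limma, 1 (Lmo2) rose, and 11 lay 2-fold below the clones, with a median log2 difference of -2.22. Of all genes, 2.93% fell and 2.60% lay 2-fold below the clones. The 8 fallers became 5 without clone 1, 5 without clone 2 and 5 without the trend. The list shares called genes with other lists (Lmo2, Flt3, Gata2 and Mycn). Angpt1, the ligand of the receptor Tek, read 11723, 13325 and 4631 in the clones and 51 in MLL-ENL, under the level (at least 12.5-fold; log2 difference -6.76, SE 0.83, adjusted p = 0.0028). The basic helix-loop-helix factor Tal1 read 8207, 7775 and 2678 against 149.5 (at least 7.25-fold, adjusted p = 0.00618). Erg, an ETS factor of stem cells, read 8139, 8133 and 7079 against 1478 (log2 difference -2.37, SE 0.28, adjusted p = 0.0022). For each of these 3 the call held in all 16 alternatives. Mycn, a MYC family factor, read 42341, 37727 and 89551 in the clones and 4258 in MLL-ENL (adjusted p = 0.00107); the 6 HoxA9 and HoxA9+Meis1 clones read 77101 to 106123, so MLL-ENL was the low array among the 10. With the mean of its probe sets the log2 difference of Mycn was -1.42 instead of -3.61 and its adjusted p 0.1006. Cd27, a TNF receptor family member, read 7378, 9170 and 4610 against 366 (adjusted p = 0.0275), and Mecom, a zinc-finger factor, 1136, 972 and 393 against 22.4 (adjusted p = 0.0235). The calls of both were lost without clone 1 or clone 2, at adjusted p of 0.0633 to 0.0789, and over the alternatives they ran from 0.000869 to 0.0935.

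Surface markers of progenitors behaved unevenly. Cd34, the CD34 antigen, read 32330, 29092 and 12432 in the clones and 2723 in MLL-ENL, 4.57-fold below the lowest clone, with an adjusted p of 0.193. Cd48 read 22265, 26088 and 18394 against 1073 (17.1-fold, adjusted p = 0.158), and the transcription factor Hlf 5107, 4276 and 1719 against 106 (adjusted p = 0.0924). In a fit of the 4 arrays alone, all 3 of these passed the test. Kit, the receptor for stem cell factor on which the cultures were grown, read 29049, 27221 and 17046 against 14242, below the lowest clone by less than 2-fold (adjusted p = 0.137; 0.00621 without clone 3 and up to 0.325 over the alternatives). Cd93 was close to the clones, at 42864, 49498 and 47053 against 37225 (adjusted p = 0.394).

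The erythroid and megakaryocyte list, 15 measured genes, had 2 that fell and none that rose, beside 2.93% and 1.74% of all genes. Pf4, a platelet chemokine also made by mast cell precursors, read 9630, 7324 and 1833 in the clones and 401 in MLL-ENL (adjusted p = 0.0219), and carbonic anhydrase Car2 4093, 3285 and 1319 against 149.7 (adjusted p = 0.0261). Clone 3 was the lowest clone for 12 of the 15 genes; without it 8 fell by limma and 7 lay 2-fold below the clones, and limma called 1 without clone 1 and 0 without clone 2. The call of Pf4 was lost without clone 2 and that of Car2 without clone 1 or clone 2 (adjusted p of 0.0661 to 0.0748; 0.000297 to 0.0748 over the alternatives). Whether the lower mast cell, erythroid and neutrophil markers have a part in the other differences was not tested.

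Some genes outside these lists were higher in MLL-ENL than in any NUP98-NSD1 clone. Smpdl3a, a phosphodiesterase of the sphingomyelinase family, read 136, 51.6 and 11.3 in the clones, all under the level, and 35827 in MLL-ENL, at least 97-fold higher (log2 difference 8.73, SE 2.07, adjusted p = 0.0438). Gpx3, an extracellular glutathione peroxidase, read 146, 78.1 and 448 in the clones and 38529 in MLL-ENL (86-fold, adjusted p = 0.0334). Tctex1d1, named for a dynein light chain domain, read 148, 329.8 and 42.7 against 15444 (at least 41.8-fold, adjusted p = 0.0303). The groups were widely separated, but these genes vary strongly among the HoxA9 clones, where Smpdl3a ranged from 49.8 to 8146, Gpx3 from 434 to 18136 and Tctex1d1 from 330.4 to 7015. Their calls were lost when clones were left out: Smpdl3a without any of the 3 (adjusted p of 0.0537 to 0.0944), Gpx3 without clone 1 or 2 (0.0817 and 0.0864) and Tctex1d1 without clone 1 (0.0705); over the alternatives the 3 genes ran from 0.00191 to 0.0996. Hpgd, which inactivates prostaglandins, read 178, 570.1 and 8165 in the clones, highest in clone 3. It read 118201 in MLL-ENL, where it was among the brightest genes (limma adjusted p = 0.0257, and 0.0746 without clone 2). Over the alternatives the adjusted p of Hpgd ran from 0.000183 to 0.103. The HoxA9 clones read 13797 to 33217 for Hpgd and the HoxA9+Meis1 clones 69084 to 80116. Penk, the precursor of enkephalins, read 106, 57.6 and 1153 against 14436 (adjusted p = 0.0274; 0.0719 and 0.0644 without clones 1 and 2, and 0.00189 to 0.0754 over the alternatives).

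Of the other genes furthest above the clones, 3 kept their call in all 16 alternatives. Sgip1, an endocytic adaptor, read 905, 254 and 589 in the clones and 11154 in MLL-ENL (12.3-fold; log2 difference 4.35, SE 0.72, adjusted p = 0.00951). Slc36a4, an amino acid transporter, read 346, 511 and 161 against 5557 (10.9-fold, adjusted p = 0.00894). The HoxA9 clones read 7162 to 7790 for Slc36a4, above MLL-ENL. Among the 14 genes furthest above the clones, the highest HoxA9 clone also exceeded MLL-ENL for Maoa (10289), and for no other gene. The transcript 9630013D21Rik read 358, 121 and 25.5 against 7707 (at least 20.9-fold, adjusted p = 0.0102). Gspt2, a translation termination factor, read 285, 69.5 and 32.8 against 4098 (at least 11.1-fold, adjusted p = 0.0159); in the 6 HoxA9 and HoxA9+Meis1 clones it read 25.9 to 57.0, so MLL-ENL was the 1 array of the 10 above the level. With another probe set for Gspt2, taken by the filter of 3 of 10 arrays or as the brightest over all arrays, the log2 difference was 1.84 instead of 5.01 (adjusted p = 0.329 and 0.324). Its call was also lost with the level at the 60th percentile (0.066), the mean of its probe sets (0.058) and a fit of the 4 arrays (0.0654). Wdr66 read 156, 63.7 and 800.1 against 14937 (adjusted p = 0.0114); without clone 3 another probe set stood for the gene and its log2 difference dropped from 5.93 to 0.24 (adjusted p = 0.679; 0.00609 to 0.679 over the alternatives). Lgals3, galectin 3 of macrophages, read 649.5, 198 and 1210 against 34691 and did not pass the test (adjusted p = 0.16), nor did Hebp1 (83.4, 52.8 and 23.9 against 7007, adjusted p = 0.0715), Camk1 (516, 664 and 119 against 8314, adjusted p = 0.2) or Maoa (51.8, 412 and 446 against 5427, adjusted p = 0.178), although MLL-ENL was over 10-fold above every clone for each.

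Among the 14 genes furthest below the clones, those not yet described act in different parts of the cell. Ifitm1, an interferon-induced membrane protein, read 44318, 42171 and 40240 in the clones, a narrow range, and 384 in MLL-ENL (105-fold; log2 difference -6.66, SE 1.04, adjusted p = 0.00711). Plp2, a membrane proteolipid, read 28893, 26672 and 40965 against 607 (44-fold, adjusted p = 0.000941). Hmgn1, a nucleosome-binding protein, read 84614, 93608 and 67873 against 525 (129-fold, adjusted p = 0.00426). For Hmgn1, 2 further probe sets separated MLL-ENL from the clones in the same way, at 432.5 against 40375 to 47895 and 722 against 41741 to 54379. The remaining kept Hmgn1 probe set was near the level on every array, and alone gave a log2 difference of 0.12. The glucose transporter Slc2a3 read 14514, 6393 and 22039 against 19.5, under the level (at least 17.3-fold, adjusted p = 0.000909). With suffixed probe sets left out, the log2 difference of Slc2a3 was -2.61 instead of -7.95 (adjusted p = 0.16). Msi2, an RNA-binding protein of stem cells, read 15765, 13756 and 6548 against 52 (at least 17.7-fold; log2 difference -7.07, SE 0.51, adjusted p = 0.000413). Of the 7 other kept Msi2 probe sets, 5 lay below all clones and 1 above them; that one read 1702, 1593 and 1194 in the clones and 1768 in MLL-ENL and gave a difference of 0.25 when it stood for the gene.

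**Figure D4:**
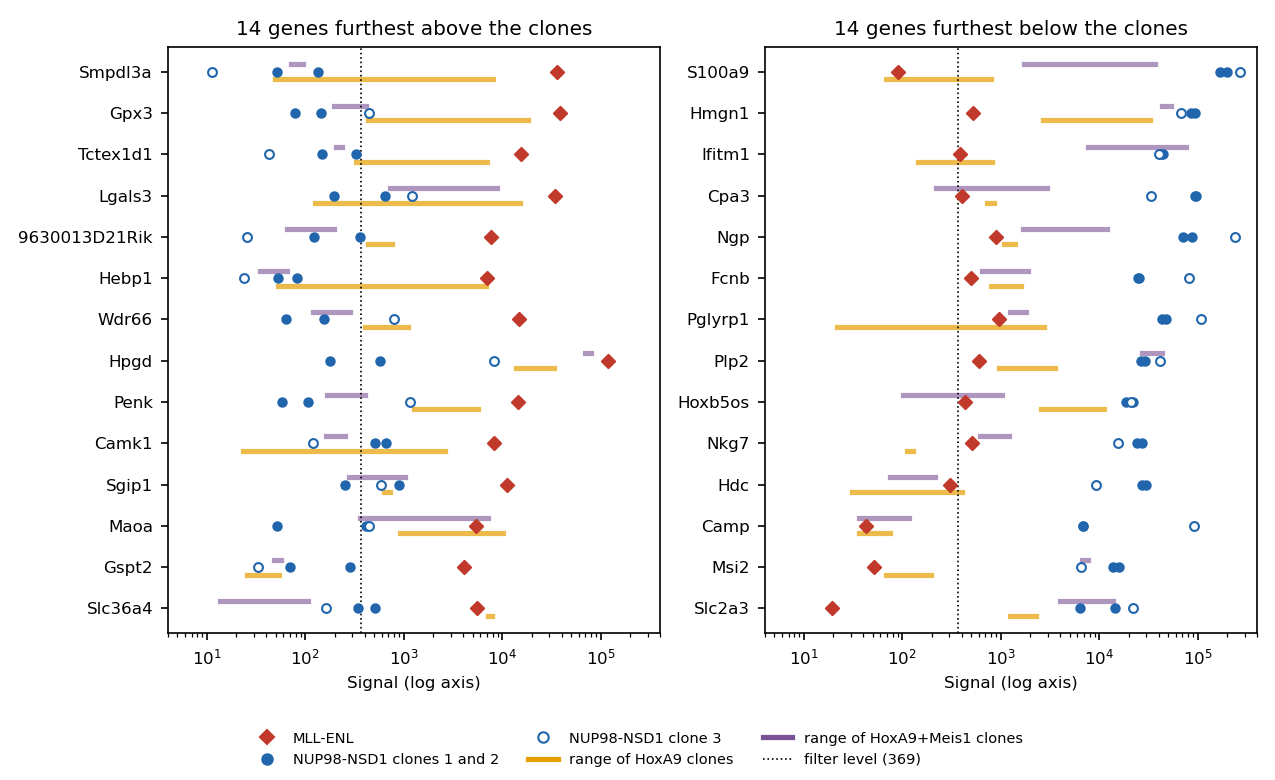
Signal (log axis) of the 14 genes furthest above (left) and the 14 furthest below (right) the nearest NUP98-NSD1 clone, in MLL-ENL (red diamonds), clones 1 and 2 (blue) and clone 3 (open), with the ranges of 3 HoxA9 (orange) and 3 HoxA9+Meis1 (purple) clones and the filter level of 369 (dotted). MLL-ENL stands apart from the NUP98-NSD1 clones in every row, as the choice of these genes requires, and lies inside the HoxA9 range for some of the lower genes, such as S100a9, Camp and Hdc.

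Myeloid transcription factors were called in both directions. Of 40 measured, 2 rose and 4 fell by limma, beside 1.74% and 2.93% of all genes. Of the 40, 1 lay 2-fold above and 7 below the clones, beside 1.65% and 2.60% of all genes. The median log2 difference was -0.47, and -0.17 under the common-median shift. Without clone 3, 4 rose, 11 fell and 12 lay below the clones; 1 rose without clone 1 and 1 without clone 2. Ikzf2 (Helios), a lymphoid and stem cell zinc-finger factor, read 12586, 11014 and 4147 in the clones and 246 in MLL-ENL, under the level (at least 11.2-fold; log2 difference -4.91, SE 0.52, adjusted p = 0.00136). The other fallers, Gata2, Id2 and Mycn, and the riser Mef2c are given above. Klf2, a Krüppel-like factor, rose from 1664, 1838 and 1975 in the clones to 4730 (adjusted p = 0.0476); without clone 1 the adjusted p was 0.1002 and without clone 2 0.0964, within 0.0385 to 0.1002 over the alternatives. The factors that drive granulocyte and monocyte formation were expressed on all 4 arrays: Cebpa at 21083, 23002 and 19412 in the clones and 29219 in MLL-ENL (adjusted p = 0.286), Spi1 (PU.1) at 16915, 17733 and 25442 against 26254 (adjusted p = 0.262) and Cebpb at 22549, 23372 and 32137 against 46193 (adjusted p = 0.0702). MLL-ENL was above every clone for these 3 by less than 2-fold. Without clone 3, Spi1 and Cebpb passed the test, with adjusted p of 0.00626 and 0.0168, and over the alternatives they ran to 0.528 and 0.166.

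Of 30 measured cytokine and chemokine receptors, 5 rose and 2 fell by limma, beside 1.74% and 2.93% of all genes. The risers became 3 without clone 1, 2 without clone 2, 2 after quantile normalization, 8 under the common-median shift, 1 with the mean of probe sets and 1 without the trend. The fallers became 4 without clone 3 and 1 without clone 1, and the 1 receptor 2-fold above the clones became 5 without clone 3, 3 without clone 1 and 2 without clone 2. Ifnar2, a chain of the type I interferon receptor, read 9293, 9155 and 11747 in the clones and 25159 in MLL-ENL (2.14-fold above the highest clone; log2 difference 1.33, SE 0.20, adjusted p = 0.00618, called in all 15 alternatives that measured it). Its partner chain Ifnar1 read 2897, 3154 and 2951 against 5104 (adjusted p = 0.0447), the interleukin 10 receptor chain Il10rb 11200, 12303 and 14468 against 26840 (adjusted p = 0.0171) and the TNF receptor Tnfrsf1b 6726, 7493 and 10443 against 20183 (adjusted p = 0.0447). Each of these 3 was less than 2-fold above the clones, and lost the call without clone 2 (adjusted p of 0.0509 to 0.105) and, except Il10rb, without clone 1 (0.0876 and 0.103); over the alternatives they ran from 0.00885 to 0.59. The chemokine receptor Ccr2 read 51065, 44548 and 37788 against 76090 (adjusted p = 0.0142; 0.232 with the mean of its probe sets and from 0.00518 over the alternatives). The fallers were Flt3 and Cxcr2. Csf1r, the macrophage colony-stimulating factor receptor, read 16824, 18996 and 19224 against 38226, 1.99-fold above the highest clone, and did not pass (adjusted p = 0.424). The median over the list was -0.13, and 0.12 under the common-median shift.

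Of 21 measured monocyte and macrophage genes, 2 rose and 2 fell, beside 1.74% and 2.93% of all genes. The list's median log2 difference was 0.31 (0.58 under the common-median shift). None of the 21 lay 2-fold above the clones, but 5 did without clone 3 and 1 without clone 1. F13a1, coagulation factor XIII of monocytes, read 69193, 62742 and 67699 in the clones and 117308 in MLL-ENL (log2 difference 0.82, SE 0.11, adjusted p = 0.00402), and the other riser was Ccr2. Ly86, a toll-like receptor partner, read 3091, 3334 and 6920 against 278 (at least 8.37-fold lower, adjusted p = 0.0187; 0.0604 without the trend), and Mrc1, the mannose receptor, 2221, 1417 and 1578 against 304 (at least 3.84-fold lower, adjusted p = 0.0133). MLL-ENL was above all clones for 11 of the 21 genes and below all for 7, beside 26.4% and 31.8% of all genes. The 12 measured dendritic cell and MHC class II genes had none called, 0 by limma and 0 beyond the clones, beside 4.67% and 4.25% of all genes.

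Proliferation genes were called in 1 case. Among 31 measured cell cycle genes, Cdkn2c, which encodes the CDK4 and CDK6 inhibitor p18, was the only one called by either rule. Of all genes, 4.67% were called by limma and 4.25% lay 2-fold beyond the clones. Without clone 3, 1 further cell cycle gene fell. Cdkn2c read 4337, 4616 and 6939 in the clones and 54106 in MLL-ENL, 7.8-fold above the highest clone. The log2 difference was 3.38 (SE 0.29, adjusted p = 0.000663), and the call held in all 16 alternatives. The HoxA9 clones read 10480 to 17013 and the HoxA9+Meis1 clones 9038 to 10715, so MLL-ENL was the highest of the 10 arrays. The median over the list was -0.02 (0.29 under the common-median shift), and the 17 ribosomal protein genes had none called and a median of -0.01 (0.30).

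Further lists held 1 to 4 called genes each. Of 22 immediate early genes, which respond within minutes to growth signals, 2 rose and 2 fell, beside 1.74% and 2.93% of all genes; 1 rose without clone 1 and 1 without clone 2. The AP-1 member Fosl2 read 3880, 3888 and 3262 in the clones and 13616 in MLL-ENL (3.5-fold, adjusted p = 0.00402), and the other riser was Klf2. The phosphatase Dusp1 read 1860, 2100 and 2358 against 603 (adjusted p = 0.0147; 0.0603 after quantile normalization and 0.0736 under the common-median shift), and the stress-response gene Ier3 10179, 7626 and 4758 against 1576 (adjusted p = 0.007). The median of this list was -0.28 and became 0.03 under the common-median shift. Of 22 interferon response genes, 1 rose and 2 fell by limma, beside 1.74% and 2.93% of all genes. Gbp3, a guanylate-binding protein, rose from 1537, 1234 and 1807 to 7272 (log2 difference 2.25, SE 0.23, adjusted p = 0.00111). Ifitm1 fell, while Ifitm2 and Ifitm3, its relatives, were not called. Rsad2 (viperin) fell on the probe set brightest over the 4 arrays, from 892, 1033 and 757 to 76.2 (limma adjusted p = 0.00492). With the probe set brightest over all 10 arrays its log2 difference was 1.43. Without clone 2 another probe set than the one that fell stood for the gene, and the difference was 0.86 (adjusted p = 0.437). Over the alternatives the adjusted p of Rsad2 ran from 0.00385 to 0.437.

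Of 12 Bcl2 family genes, which set the threshold for apoptosis, 3 rose and none fell, beside 1.74% and 2.93% of all genes. The survival factor Mcl1 read 26938, 26072 and 27957 in the clones and 44621 in MLL-ENL (log2 difference 0.73, SE 0.11, adjusted p = 0.00618, called in all 16 alternatives). The death-promoting members Pmaip1 (Noxa), at 8838, 8470 and 7100 against 16135 (adjusted p = 0.0133; 0.0535 without the trend), and Bid, at 15068, 15567 and 15008 against 22810 (adjusted p = 0.0107; 0.168 with the mean of its probe sets), rose too, so the risers were of both kinds. All 3 lay above every clone by less than 2-fold.

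Of 23 adhesion molecules, 1 rose and 1 fell by limma, beside 1.74% and 2.93% of all genes. Those 2-fold below the clones went from 2 to 5 without clone 3. Emb (embigin), an immunoglobulin superfamily partner of monocarboxylate transporters, rose from 28697, 31300 and 36337 in the clones to 112056 in MLL-ENL. That was 3.08-fold above the highest clone (log2 difference 1.81, SE 0.18, limma adjusted p = 0.00107). The integrin chain Itga2 fell at low signal (626, 280.0 and 345 to 44.6, adjusted p = 0.0463; 0.0576 without clone 2 and 0.0268 to 0.343 over the alternatives). Of 17 glycolysis genes 4 fell (2 without clone 1 or clone 2) and none rose: Slc2a3, the aldolase Aldoc (5506, 3083 and 5599 against 331, at least 8.35-fold, adjusted p = 0.00402; log2 difference -3.66, and -2.12 with adjusted p = 0.308 with suffixed probe sets left out), the regulator Pfkfb3 (5315, 5318 and 7656 against 2734, adjusted p = 0.0455) and hexokinase Hk2 (19990, 16626 and 15531 against 9537, adjusted p = 0.0342). Of all genes, 2.93% fell. MLL-ENL lay below all clones for 14 of the 17 (31.8% of all genes), with a median log2 difference of -0.38. Under the common-median shift that median was -0.07 and 2 of the glycolysis genes fell. Without clone 3, 1 glycolysis gene lay 2-fold above the clones. The calls of Pfkfb3 and Hk2 were lost without clone 1 or 2 (0.0683 to 0.0749) and also under the common-median shift, and their adjusted p ran from 0.0193 to 0.239 over the alternatives. Of 18 sterol and fatty acid synthesis genes, 1 fell by limma, beside 2.93% of all genes. It was Dhcr7, an enzyme of cholesterol synthesis (12536, 13254 and 12218 against 7807, adjusted p = 0.0407; 0.0807 and 0.0949 without clones 1 and 2, and 0.0325 to 0.388 over the alternatives). Neither of the 2 measured sex-linked transcripts was called.

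**Figure D5:**
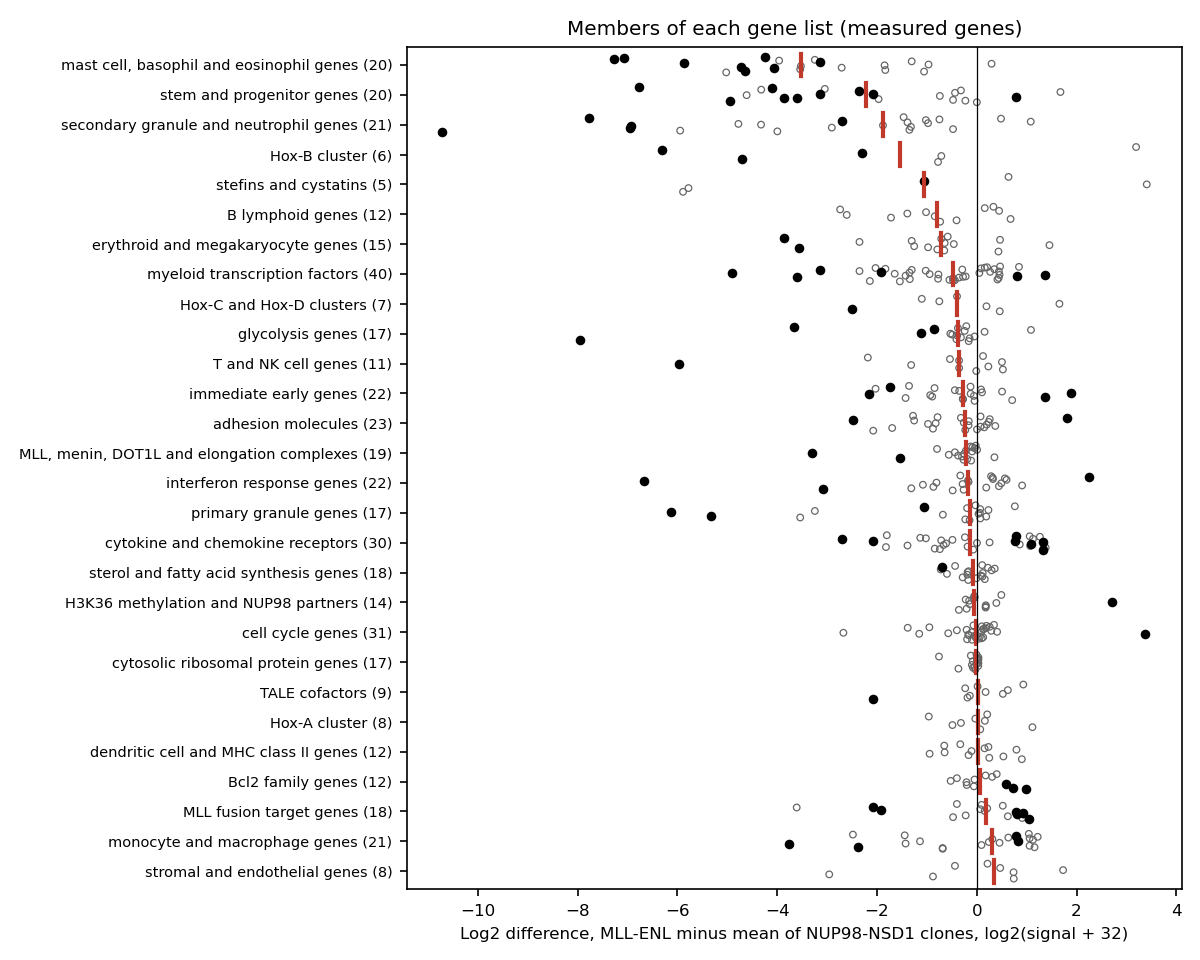
Log2 difference, MLL-ENL minus the mean of the 3 NUP98-NSD1 clones, of each measured member of 28 gene lists (number measured in brackets); filled points passed limma at an adjusted p under 0.05 and red bars are list medians. The medians of the mast cell (-3.53), stem (-2.22) and neutrophil (-1.88) lists are the lowest; the cell cycle, ribosomal and Hox-A medians lie within 0.03 of 0.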

How the data were processed

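The deposited values are scaled signal intensities from Affymetrix arrays, 1 per probe set and array; the software that made them is not given in the sources used here. On each array their mean without the lowest and highest 2% was 2500.01 to 2500.02. No further scaling was applied. Of 45101 probe sets, 34945 named 1 gene symbol, 932 several, 9160 none and 64 were controls; symbols were updated by Entrez ID. All value columns matched a sample (0 without one). A probe set was kept if it exceeded 369.318, the 40th percentile, on at least 1 of the 4 arrays, and the brightest kept probe set over those arrays stood for its gene.

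Log2(signal + 32) was fitted with limma 3.58.1 (lmFit, eBayes with trend; R 4.3.3) over all 10 arrays by oncogene, with 6 residual degrees of freedom and Benjamini-Hochberg adjustment over 14905 genes. Genes named were the 14 furthest beyond the clones in each direction and members of the gene lists. Members and lists were chosen with earlier results of these data known. The fit was tested on simulated data. Figures used Python 3.11.15 and matplotlib 3.10.9. Alternatives covered scaling, offset, filter, probe set choice, the fit and each clone left out. The number of arrays limits the precision.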

Additional observations from a re-analysis of the deposited data

How the results depend on the processing

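No paired analysis was possible because the MLL-ENL label carries no clone number and its group holds 1 array. The 259 genes that rose by limma became 96 without the trend, 134 in a fit of the 4 arrays and 120 to 601 with each clone left out; the 437 that fell became 259 under the common-median shift and 230 to 817 with each clone left out. The 246 genes above the clones became 397 under the common-median shift, 290.0 to 411 with each clone left out, 3936 at any distance and 58 at 4-fold. The 387 below became 214 with the level at the 60th percentile, 428 to 713 with each clone left out, 3610 at any distance and 132 at 4-fold. The 3610 are counted with signals under 369 raised to that level. With signals as deposited, MLL-ENL lay below all clones for 4746 genes (31.8%). Over the lists, 10 members above the clones became 19 under the common-median shift, 12 to 21 with each clone left out, 96 at any distance and 3 at 4-fold, and 61 below became 177 and 36. List members that rose by limma, 19, became 12 with the mean of probe sets and 9 without the trend; the 47 that fell became 31 to 76 with each clone left out.

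Log2 differences that changed sign were those of Kmt2a (0.04996) and Myb (0.0860) under the common-median shift; Hoxa9 (-0.025 by quantile normalization, -0.18 with the probe set brightest over 10 arrays, -0.055 with the mean of probe sets); Meis1 (-0.14), Pbx3 (-0.030), Msi2 (0.25) and Rsad2 (1.43) with other probe sets; and Hmgn1 (0.12) and Ptprc (-0.72) with suffixed probe sets left out, Ptprc also with their mean (-0.27). With each clone left out, the difference ran from -0.053 to 0.652 for Hoxa10, from -0.0325 to 0.105 for Mpo, from -0.0076 to 0.157 for Ctsg, from -0.149 to 0.407 for Lyz2 and from -3.20 to 0.86 for Rsad2. The 0.86 of Rsad2 came without clone 2, where another probe set stood for the gene. Of 129 named genes, 86 passed the test and 39 of these passed it under every alternative that measured them.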

Other observations

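Outside the gene lists, some large differences were picked after their values were seen and are given as values only. Ptgr1, an enzyme that inactivates prostaglandins and leukotriene B4, read 1412, 1670 and 5434 in clones 1, 2 and 3 and 47200 in MLL-ENL (log2 difference 4.31, SE 0.65, limma adjusted p = 0.00618). The transporter Abcg2 read 510.0, 274 and 515 against 3569 (adjusted p = 0.0349; 0.0585 and 0.0814 without clones 1 and 2, and 0.0229 to 0.0814 over the alternatives). The TGF-beta co-receptor Tgfbr3 read 412, 138 and 147 against 2558 (adjusted p = 0.0315; 0.0801 without clone 2, and 0.0173 to 0.291 over the alternatives). Hnmt, which inactivates histamine, read 23.1, 9.45 and 627 against 6169 but did not pass the test (limma adjusted p = 0.17). Gatm, an enzyme of creatine synthesis, read 1274, 1559 and 1508 against 15924 and did not pass either (adjusted p = 0.294). In the HoxA9 clones Tgfbr3 read 7239 to 11027 and Gatm 17578 to 18896, above MLL-ENL. Ptgr1 read 35940 to 52822 there and Hnmt 86.0 to 7430, ranges that include MLL-ENL. Abcg2 read 322 to 1074 there, below MLL-ENL.

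Genes chosen in the same way that fell included several of the cell surface. Siglecf, a sialic acid receptor of eosinophils, read 7620, 7297 and 6096 in the clones and 349 in MLL-ENL (log2 difference -4.20, SE 0.57, adjusted p = 0.00402). The TGF-beta co-receptor endoglin, Eng, read 7004, 7531 and 8762 against 435 (adjusted p = 0.00415), and Spns2, a sphingosine-1-phosphate transporter, 14543, 12764 and 5977 against 185 (adjusted p = 0.000896). Ptprcap, which binds CD45, read 9816, 11376 and 4946 against 249 (adjusted p = 0.000663), although Ptprc itself did not pass the test. The protease inhibitor Ctla2a read 21080, 17080 and 4741 against 15.2 (adjusted p = 0.00402), and the transcription factor Zbtb16 (PLZF) 14940, 12400 and 4249 against 274 (adjusted p = 0.00277). Clone 3 was the lowest clone for Ctla2a, Zbtb16, Spns2 and Ptprcap and remained far above MLL-ENL. In the HoxA9 clones Siglecf read 156 to 557, a range that includes MLL-ENL. Ctla2a read 16.8 to 66.8 there, Eng 499 to 1168, Zbtb16 468 to 704, Spns2 491 to 942 and Ptprcap 1478 to 1793, above MLL-ENL. For each of these genes every HoxA9 clone read below every NUP98-NSD1 clone. The HoxA9+Meis1 clones read 10169 to 16869 for Ptprcap.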
